A study of Mus musculus with 12 samples.

Results

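The mitochondrial carriers of the Slc25 family were examined in interscapular brown adipose tissue, the heat-producing fat depot between the shoulder blades of rodents. The members were all genes whose GENCODE M21 symbol begins with Slc25a, apart from the ADP/ATP carriers Slc25a4, Slc25a5 and Slc25a31, which left 45 of 54356 genes. PolyA RNA came from 12 male wild type mice of strain C57BL/6N aged 20 weeks, 6 labelled ctrl (mice 2, 5, 6, 9, 10 and 14) and 6 labelled cold (mice 4, 7, 11, 12, 15 and 16). The treatment text describes 24 h at 4 °C in single housing for both groups, and it is read here as meant for the cold mice, against a colony temperature of 22 to 24 °C. If the ctrl mice were not housed singly, single housing and cold cannot be told apart. The number of cold mice is 3 in the series text and 6 in the labels, and the protocol for RNA isolation speaks of eWAT, another depot; the sample labels were followed.

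Carriers of this family sit mostly in the inner mitochondrial membrane and move small molecules that the membrane itself does not let through. Such carriers exchange citrate, amino acids, phosphate, nucleotides, cofactors, iron and glutathione between the matrix and the cytosol. Many of them thus link a mitochondrial pathway to a cytosolic one. In brown fat cells such exchange feeds fatty acid oxidation, fat synthesis and the respiratory chain, and the uncoupling protein Ucp1, which makes heat, belongs to the same protein family but is named outside the Slc25a symbols.

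The libraries held 16.0 to 31.4 M estimated reads with group means of 20.5 and 20.7 M, a difference within the spread (exact two-sided permutation p = 0.937, n = 6 each). Values written with ± are means with the SD over 6 animals, and log2 fold changes, cold against ctrl, carry their standard error. All 8 brown adipocyte markers were detected, with a summed level of 19372 to 27048 CPM (TMM-scaled counts per M reads) in ctrl and 24546 to 33414 in cold (exact two-sided permutation p = 0.0087). Of these 8 genes, 3 were called higher and 1 lower, and their part in the members' changes was not tested. None of the 10 skeletal muscle markers was called, but their sum ran from 110 to 1473 CPM in ctrl and from 155 to 4544 in cold, with cold 15 the highest. None of the 5 erythroid markers tested was called, and their sum ran from 513 to 1051 CPM in ctrl and from 559 to 1378 in cold. The white adipocyte list, 4 genes with 1 of 3 tested called higher, summed to 90.7 to 253 CPM in ctrl and 416 to 619 in cold. Its groups did not overlap (exact two-sided permutation p = 0.0022), and its part in the members' changes was not tested. The sums of the endothelium, macrophage, fibroblast and neuron lists overlapped (exact two-sided permutation p from 0.188 to 0.751). In endothelium 1 of 5 genes was higher and 1 lower, in macrophages 1 of 5 was higher and in fibroblasts 1 of 4 was lower. In whole tissue, fewer cells of a type and less RNA per cell cannot be told apart. Cold 4 held the highest level of its group for 13 of 37 members and the lowest for 13 others, and ctrl 9 the lowest for 14.

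Of the 45 members, 37 passed the filter on low counts and were tested with edgeR's quasi-likelihood test. The other 8 were Slc25a2, Slc25a13, Slc25a18, Slc25a21, Slc25a41, Slc25a43, Slc25a54 and the pseudogene Slc25a5-ps. The highest level among them in any animal was 0.532 CPM, and Slc25a54 had no read. Cold animals were called different at an adjusted p under 0.05 in 15 of 37 members, 11 higher and 4 lower. Over all 13876 genes tested 31.6% were called, 16.2% higher and 15.4% lower, so the members' share, 40.5%, stood at most a little above the background. By direction 29.7% of the members were higher and 10.8% lower, and the difference from the background was not tested. Groups did not overlap for 14 of 37 members (37.8%), 10 with cold above and 4 with cold below. Over all genes this share was 16.3% (8.92% above and 7.37% below). The median log2 fold change was 0.08 over the members and -0.01 over all genes. The shares called over all genes are also the background for the counts by group and list below. Of the 15 called members, 5 changed by at least 1 on the log2 scale, Slc25a34, Slc25a45 and Slc25a17 upward and Slc25a1 and Slc25a23 downward, while 5.04% of all genes were called with a change of that size. Among the called members Slc25a23, Slc25a33 and Slc25a46 overlap genes of the opposite strand, each at 2.52 CPM or less on average.

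The promoters of the 4 members with the largest changes are shown because they are the places from which the transcripts in question start. They are the 250 bases before the RefSeq start on GRCm38.p6, read on the gene's strand, with the only motif found in them in capitals. The windows are chr16:17928220-17928469 (minus strand) for Slc25a1, chr4:141623835-141624084 (minus) for Slc25a34, chr15:81360766-81361015 (minus) for Slc25a17 and chr19:5877572-5877821 (plus) for Slc25a45.
Slc25a1 promoter: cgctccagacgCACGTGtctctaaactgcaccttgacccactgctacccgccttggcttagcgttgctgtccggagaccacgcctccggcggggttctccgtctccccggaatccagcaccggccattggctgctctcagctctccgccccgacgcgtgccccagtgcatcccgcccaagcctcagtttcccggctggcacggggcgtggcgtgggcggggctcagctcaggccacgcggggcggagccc
Slc25a34 promoter: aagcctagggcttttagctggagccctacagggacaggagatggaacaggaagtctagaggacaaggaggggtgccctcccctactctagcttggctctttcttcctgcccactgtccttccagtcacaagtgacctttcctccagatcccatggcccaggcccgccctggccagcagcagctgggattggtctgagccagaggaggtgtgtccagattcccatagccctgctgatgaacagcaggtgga
Slc25a17 promoter: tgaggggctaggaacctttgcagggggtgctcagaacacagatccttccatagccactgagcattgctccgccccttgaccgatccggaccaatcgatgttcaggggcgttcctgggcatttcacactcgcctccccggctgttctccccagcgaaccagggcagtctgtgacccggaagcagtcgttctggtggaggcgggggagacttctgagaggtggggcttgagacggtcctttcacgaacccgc
Slc25a45 promoter: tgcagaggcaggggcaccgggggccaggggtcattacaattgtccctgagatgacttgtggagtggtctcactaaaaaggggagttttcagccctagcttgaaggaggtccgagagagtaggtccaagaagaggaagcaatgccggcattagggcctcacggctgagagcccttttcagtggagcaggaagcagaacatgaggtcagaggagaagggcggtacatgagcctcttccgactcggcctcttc
The motifs searched on both strands, in windows of 300 bases that add 50 after the start, were TNAAGGTCA (a string read by ERR and related nuclear receptors), TGACGTCA (the cAMP response element) and the E-box CACGTG. Windows were at hand for 33 of the 45 members, 43 windows in all, some of which overlap. CACGTG was found in 7 of 43 windows (16.3%) against 7.15% of 32851 promoters, in Slc25a1 at position -239 from the start, and also in Slc25a13, Slc25a14, Slc25a15, Slc25a33 and Slc25a36. These are 6 distinct sites in 6 members, since 2 overlapping windows of Slc25a14 hold the same site and the share counts it in both. TGACGTCA was found in 2 (4.65% against 1.79%), those of Slc25a25 and Slc25a36, and TNAAGGTCA in 0 of 43 against 1.28%. A match is a string in the window and was not tied to binding by any measurement here.

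Between genes, levels were compared as CPM per kb of transcript. In ctrl Slc25a1 was the highest member at 582 ± 129, ahead of Slc25a20 at 326 ± 40.7 and Slc25a39 at 274 ± 29.1 CPM per kb. Slc25a51 and Slc25a3, at ranks 5 and 6 with 211 ± 16.1 and 209 ± 12.7 CPM per kb, did not differ beyond their spread. In cold Slc25a20 (388 ± 35.02) and Slc25a39 (365 ± 42.8) led and were within their spread, and Slc25a1 stood ninth at 123 ± 28.6 CPM per kb. Slc25a17 moved from rank 10 to rank 5 and Slc25a34 from rank 23 to rank 11 among the members. At the low end, Slc25a14 and Slc25a27 held 0.889 ± 0.201 and 0.640 ± 0.105 CPM per kb in ctrl and ranked 36 and 37 in both groups. The summed level of all members was 4814 to 5212 CPM in ctrl and 5101 to 5562 in cold, so the groups overlapped. Without Slc25a1, the member with the largest fall, the sum was 3839 to 4418 CPM in ctrl and 4980 to 5307 in cold, without overlap. Slc25a1 was left out for its fall in these same data, so this lack of overlap is no test of the members as a group.

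**Figure D1:**
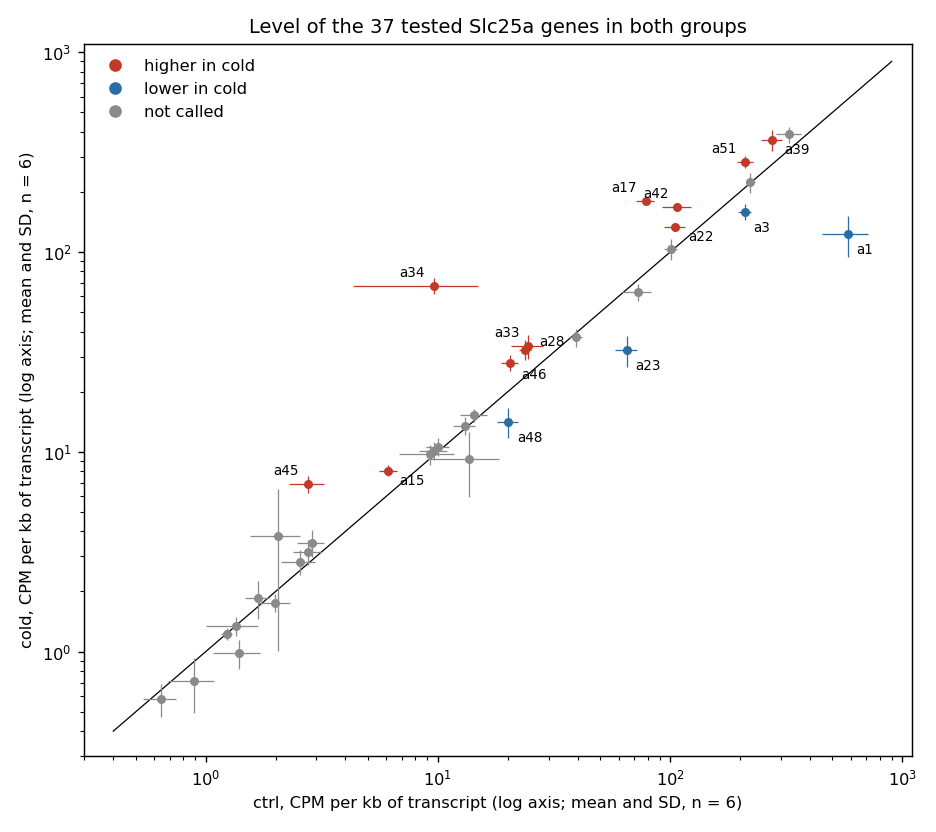
Mean level in cold against mean level in ctrl for the 37 tested members, both in CPM per kb on log axes, with bars for the SD over 6 animals and a line of equal levels. Slc25a34 lies far above the line and Slc25a1 far below it, while Slc25a20, not called, lies at the top right near the line.

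The first group, carriers of citrate, dicarboxylates and oxoglutarate, held 4 members, of which 3 were tested, 0 were called higher and 1 lower. Slc25a1 (chr16:17925223-17928219, minus strand), the citrate carrier that brings acetyl units out of the matrix for fatty acid synthesis, ran from 711 CPM to 1270 CPM in ctrl (ctrl 9) with a median of 838. In cold it ran from 121 to 255 CPM with a median of 188, so every cold animal was below every ctrl animal. The log2 fold change was -2.24 ± 0.17 (SE), a 4.73-fold decrease from 885 ± 196 to 187 ± 43.5 CPM (adjusted p = 2.24e-07, edgeR). Slc25a10, which exchanges dicarboxylates for phosphate, was at 15.1 to 36.8 CPM in ctrl and 10.7 to 26.9 in cold (-0.56 ± 0.28, adjusted p = 0.156, edgeR). Slc25a11, the oxoglutarate carrier of the malate-aspartate shuttle, was at 168 ± 10.5 and 173 ± 20.4 CPM (0.04 ± 0.08).

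The list of citrate export and lipogenesis, which holds the enzymes that use exported citrate and their regulators, had 6 of 11 genes lower and 1 higher. Over all genes 15.4% were called lower and 16.2% higher. Acly, which splits citrate in the cytosol, fell in cold, at 4668 ± 2552 CPM in ctrl and 982 ± 262 in cold (-2.25 ± 0.38, adjusted p = 9.63e-04, edgeR). The others that fell were Acaca (-1.50), Fasn (-1.45), Me1 (-1.22), Thrsp (-0.96) and Mlxipl (-0.66). Mdh1 was the riser (0.36), and Cs, Acacb and Srebf1 were among those not called. In all, 36 of the 77 genes in the 8 lists of partner genes were called (46.8%, background 31.6%), 21 higher and 15 lower. The lists were chosen with earlier results of these data known, so their share does not test an excess over the background. With library totals in place of TMM factors 35 partner genes were called higher, a setting that moves the median of all genes from -0.01 to 0.08 on the log2 scale and the split of all calls from 2246 higher and 2134 lower to 2895 and 1409.

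Carriers of aspartate and glutamate had 4 members, 2 of them tested and 1 called higher. Slc25a22, which imports glutamate with a proton, rose from 205 ± 21.4 to 260 ± 12.0 CPM without overlap (0.35 ± 0.08, adjusted p = 0.00325, edgeR). Slc25a12, the aspartate and glutamate exchanger of the malate-aspartate shuttle, was at 3.82 to 7.34 CPM in ctrl and at 4.90 to 11.5 in 5 cold animals, with cold 15 at 25.4. Its fold change (0.88 ± 0.39, adjusted p = 0.113, edgeR) was not called. Cold 15 was also the library with the most skeletal muscle RNA. With the muscle marker level as a covariate the value was 0.39 ± 0.19, and without cold 15 it was 0.39 ± 0.22. The part of muscle RNA in the level of Slc25a12 was not tested. Slc25a12 was called with effective lengths as an offset (adjusted p = 0.0496) and without cold 4 and cold 7 (adjusted p = 0.0277, log2 fold change 1.21), both with edgeR. In the malate-aspartate shuttle list 2 of 6 genes rose and 0 fell. The list also holds Gpd1 and Gpd2, enzymes of the glycerol-3-phosphate shuttle, which were not called (0.16 ± 0.08 and -0.16 ± 0.12), so the 2 that rose are among 4 malate-aspartate enzymes. Got1, the cytosolic aspartate aminotransferase, rose, at 42.3 ± 6.19 CPM in ctrl and 191 ± 23.5 in cold (2.17 ± 0.11, adjusted p = 2.17e-09, edgeR), and Mdh1 rose by 0.36. The mitochondrial partners Got2 (0.35 ± 0.13, adjusted p = 0.0582, edgeR) and Mdh2 (0.14 ± 0.08, adjusted p = 0.239, edgeR) were not called. Got2 missed the threshold narrowly, with a change close to that of Mdh1.

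The group of acylcarnitine and amino acid carriers also holds a carrier of choline, Slc25a48. In this group 8 of 9 members were tested, of which 2 rose and 1, Slc25a48, fell. Slc25a45 (chr19:5877808-5885878, plus strand), placed by its sequence near the carnitine and basic amino acid carriers, was at 4.51 to 6.99 CPM in ctrl with a median of 5.21. All 6 cold animals were higher, at 12.6 to 16.1 CPM with a median of 13.1. The rise was 2.50-fold (1.32 ± 0.12, adjusted p = 5.20e-07, edgeR). Slc25a48 (chr13:56438355-56474239, plus strand), a choline carrier, was at 56.8 to 78.5 CPM in ctrl (median 67.6) and 31.4 to 54.2 in cold (median 49.5), again without overlap. It fell from 67.7 ± 6.94 to 47.7 ± 8.27 CPM (-0.51 ± 0.11, adjusted p = 0.00267, edgeR). Slc25a15, the ornithine carrier, rose from a range of 18.4 to 23.7 CPM to one of 24.7 to 29.3 (0.40 ± 0.08, adjusted p = 9.64e-04, edgeR).

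Slc25a20 (chr9:108662088-108684641, plus strand) brings long-chain acylcarnitines into the matrix for oxidation. It was at 467 to 659 CPM in ctrl (median 590) and 610 to 794 in cold (median 687), and the groups overlapped. The change, 0.25 ± 0.09, narrowly missed the threshold (adjusted p = 0.0503, edgeR), and 10 of 23 alternatives called it, with adjusted p from 0.0088 to 0.135 over all alternatives. All 5 genes of the carnitine shuttle list rose, while 16.2% of all genes were called higher. They make or move carnitine esters around this carrier, or take up carnitine. Cpt1a, the outer membrane palmitoyltransferase more typical of liver, went from 23.0 ± 3.36 to 85.3 ± 13.2 CPM (1.89 ± 0.12, adjusted p = 1.79e-08, edgeR). Slc22a5, the carnitine transporter of the cell surface, rose by 0.76. Cpt1b, the isoform of muscle and brown fat, rose by 0.48, Crat by 0.36 and Cpt2 by 0.29 on the log2 scale. Slc25a44, which carries branched-chain amino acids, was at 139 ± 9.41 CPM in ctrl and 132 ± 13.9 in cold (-0.07 ± 0.08). Slc25a38, the glycine carrier used in heme synthesis, Slc25a29, a basic amino acid carrier, and Slc25a47 were not called, with log2 fold changes of 0.08, -0.00 and -0.18.

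**Figure D2:**
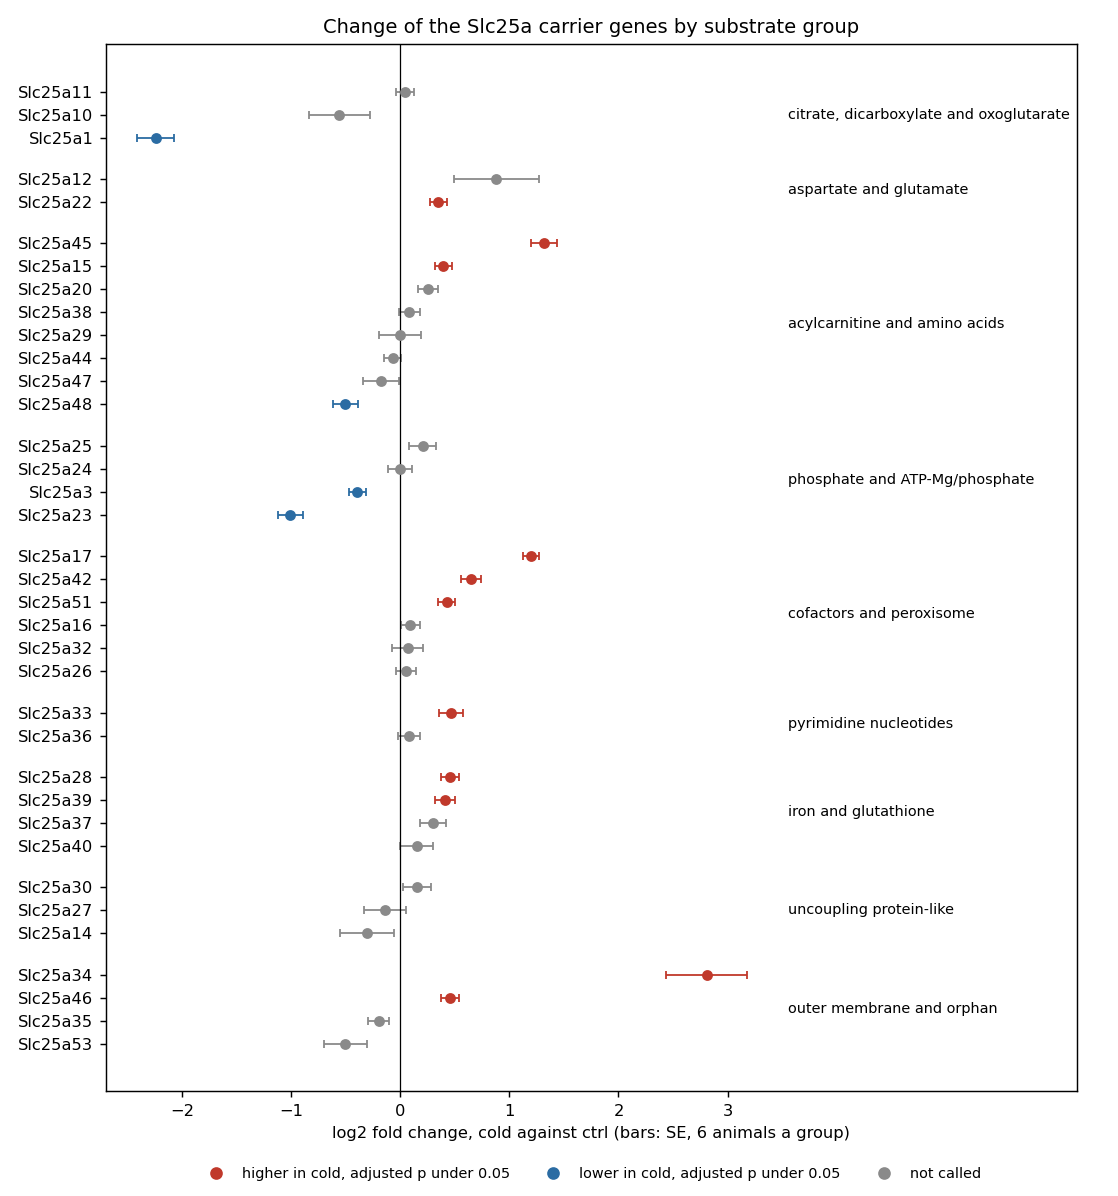
Log2 fold change of cold against ctrl with its SE for 36 of the 37 tested members, grouped by substrate, with 6 animals a group. Red points (11) were called higher, blue points (4) lower and grey points (21) not called; the scale runs from Slc25a1 at -2.24 to Slc25a34 at 2.81.

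The phosphate and ATP-Mg/phosphate carriers had 7 members, 4 of them tested, and 2 fell and 0 rose. Slc25a23 (chr17:57043711-57059863, minus strand), a calcium-dependent exchanger that sets the adenine nucleotide content of the matrix, was at 166 to 218 CPM in ctrl (median 191). In cold it was at 67.5 to 113 CPM (median 99.7), with no overlap. It fell 2.01-fold (-1.01 ± 0.12, adjusted p = 7.01e-06, edgeR). Slc25a3, which imports the phosphate used by ATP synthase, fell from 331 ± 20.1 to 252 ± 24.2 CPM (-0.40 ± 0.08, adjusted p = 0.00109, edgeR), also without overlap. The paralogs of Slc25a23, Slc25a24 (-0.00 ± 0.11) and Slc25a25 (0.20 ± 0.12), were not called and were below 12 CPM in every animal. The ADP/ATP carriers, left out by the rule, are given for comparison: Slc25a5 rose from 410 ± 32.9 to 563 ± 43.1 CPM (0.46 ± 0.08, adjusted p = 2.87e-04, edgeR). Slc25a4 rose from 395 ± 5.42 to 485 ± 71.9 CPM (0.30 ± 0.09, adjusted p = 0.0183, edgeR).

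Of the 7 carriers of cofactors, all tested, 3 rose and 0 fell, against 16.2% and 15.4% of all genes. Slc25a17 (chr15:81318911-81360812, minus strand), which lies in the peroxisome membrane and carries coenzyme A, FAD and NAD, was at 108 to 139 CPM in ctrl (median 134). In cold it was at 288 to 317 CPM (median 296), and the gap between the groups was wider than either group's range. It rose 2.29-fold, from 130 ± 11.8 to 298 ± 10.6 CPM (1.20 ± 0.08, adjusted p = 1.79e-08, edgeR), the smallest adjusted p of the members. Slc25a42 (chr8:70184340-70212305, minus strand), the mitochondrial coenzyme A carrier, was at 230 to 361 CPM in ctrl (median 338) and 473 to 521 in cold (median 510), without overlap. It rose from 323 ± 46.4 to 506 ± 17.1 CPM (0.65 ± 0.10, adjusted p = 7.32e-05, edgeR). Slc25a51, which brings NAD into the matrix, rose from 692 ± 52.7 to 930 ± 64.0 CPM (0.43 ± 0.08, adjusted p = 4.84e-04, edgeR). Slc25a16 (0.09), Slc25a26 for S-adenosylmethionine (0.05) and Slc25a32 for folate and FAD (0.07) were among those not called.

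In the coenzyme A synthesis list 2 of 8 genes rose and 1 fell, against 16.2% and 15.4% of all genes. Pank1, a pantothenate kinase that catalyses the first step, was at 469 ± 34.9 CPM in ctrl and rose to 777 ± 73.9 in cold (0.73 ± 0.08, adjusted p = 6.45e-06, edgeR), and Ppcs rose by 0.30. Its paralog Pank3 fell by 0.50, and Pank2, Pank4, Ppcdc, Coasy and Dcakd were not called.

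Both pyrimidine nucleotide carriers were tested. Slc25a33 rose, at 46.3 ± 7.32 CPM in ctrl and 63.9 ± 9.02 in cold (0.46 ± 0.11, adjusted p = 0.00462, edgeR), and it was the one called member whose groups overlapped, with ctrl 6 at 54.43 CPM and cold 15 at 54.34. Slc25a36 was at 40.4 ± 5.50 and 42.6 ± 4.53 CPM (0.08 ± 0.10).

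Of the 4 iron and glutathione carriers, all tested, 2 rose and 0 fell. Slc25a39 (chr11:102402985-102407946, minus strand), which brings glutathione into mitochondria, was at 361 to 463 CPM in ctrl (median 410) and 494 to 670 in cold (median 528), without overlap. It rose from 410 ± 43.6 to 546 ± 64.0 CPM (0.41 ± 0.09, adjusted p = 0.00285, edgeR). Its paralog Slc25a40 was at 4.42 ± 0.54 and 4.90 ± 1.06 CPM (0.15 ± 0.15). Slc25a28, mitoferrin 2, which imports iron in cells outside the red lineage, rose from 39.3 ± 2.28 to 53.8 ± 6.27 CPM without overlap (0.45 ± 0.08, adjusted p = 3.87e-04, edgeR). Slc25a37, mitoferrin 1, the main iron importer of red cell precursors, was at 10.7 to 15.0 CPM in ctrl and 11.2 to 17.9 in cold (0.30 ± 0.12, adjusted p = 0.066, edgeR).

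The partners of these carriers moved in both directions. In the list of iron, heme and iron-sulfur genes 4 of 15 rose and 4 fell. Among those that rose, Ftl1, the ferritin light chain, rose by 0.92, Alas1, the first enzyme of heme synthesis, by 0.66 and Tfrc, the transferrin receptor, by 0.54. Among those that fell, Ppox fell by 0.56, Abcb10 by 0.44 and Fth1, the ferritin heavy chain, by 0.40. In the glutathione list 1 of 8 rose and 2 fell. Gss, glutathione synthetase, rose, at 25.4 ± 4.29 CPM in ctrl and 42.6 ± 6.91 in cold (0.74 ± 0.12, adjusted p = 2.50e-04, edgeR), while the peroxidases Gpx1 and Gpx4 each fell by 0.63. Afg3l2, a protease of the matrix side known to degrade the Slc25a39 protein, was at 348 ± 17.0 and 378 ± 15.8 CPM (0.12 ± 0.07) and was not called.

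None of the uncoupling protein-like members was called. Slc25a14 (-0.31), Slc25a27 (-0.14) and Slc25a30 (0.15) were at 0.700 to 9.70 CPM over all animals. Of the 5 outer membrane and orphan members 4 were tested and 2 rose. Slc25a34 (chr4:141618824-141623821, minus strand), a carrier without an established substrate, had the largest rise of the members. In ctrl it ran from 7.87 to 44.5 CPM with a median of 26.4, a wide range, and in cold from 152 to 197 CPM with a median of 183. The lowest cold animal stood well above the highest ctrl animal. It rose 7.00-fold, from 25.6 ± 14.1 to 181 ± 16.4 CPM (2.81 ± 0.37, adjusted p = 2.13e-04, edgeR). Its close relative Slc25a35 was at 153 ± 21.9 and 133 ± 12.6 CPM (-0.20 ± 0.10, adjusted p = 0.13, edgeR). Slc25a46, an outer membrane protein of mitochondrial dynamics, rose, at 88.0 ± 7.77 CPM in ctrl and 121 ± 11.3 in cold (0.45 ± 0.08, adjusted p = 3.87e-04, edgeR), and Slc25a53, at 1.32 to 2.83 CPM, was not called (-0.50, adjusted p = 0.0606, edgeR).

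**Figure D3:**
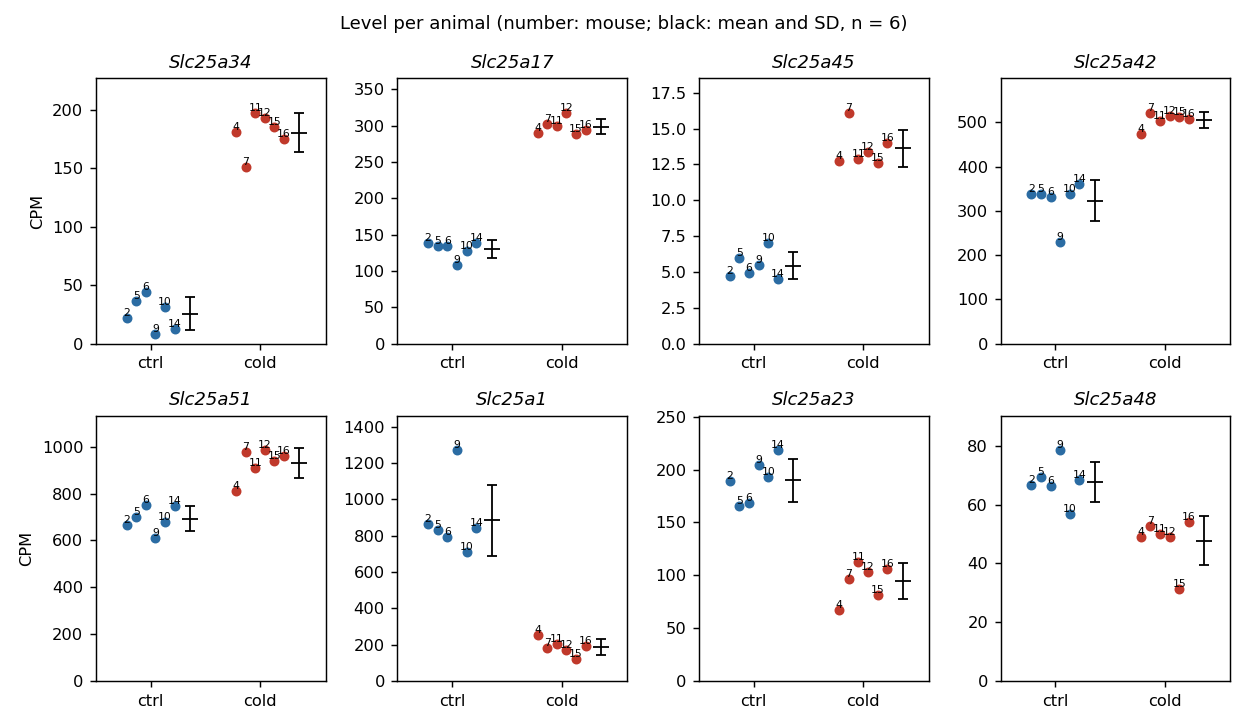
CPM in each animal for 8 called members, 6 ctrl and 6 cold, with the mouse number at each point and the mean and SD in black; all axes start at 0. Cold and ctrl do not overlap in any of the 8 panels, and the ctrl animals of Slc25a34 spread from 7.87 to 44.5 CPM.

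Carrier proteins reach the inner membrane through the outer membrane pore, small chaperones between the membranes and the Timm22 insertase. In that list 3 of 13 genes rose and 0 fell, against 16.2% and 15.4% of all genes. The 3 were Timm8b (0.45), Timm22 (0.35) and Tomm40 (0.34). Among the other mitochondrial transporters 4 of 12 rose and 2 fell. The sideroflexins split, with Sfxn2 (0.60) and Sfxn5 (0.56) higher and Sfxn1, a serine carrier, lower (-0.74 ± 0.08, adjusted p = 2.37e-06, edgeR). Vdac3 (0.27) and Vdac1 (0.22), pores of the outer membrane, rose, and Mpc1, a subunit of the pyruvate carrier, fell by 0.56 while its partner Mpc2 (-0.08) was not called.

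Transcript usage, the split of a gene's RNA among its annotated transcripts, was tested in 25 members with at least 2 transcripts past the filter. Slc25a39 was called (edgeR diffSpliceDGE gene test, adjusted p = 1.28e-06), and it was the 1 member called, against 1.23% of 7233 genes. Slc25a11, Slc25a35 and Slc25a45 had the next smallest values (adjusted p = 0.0914, 0.115 and 0.261, edgeR). Slc25a45 rested on few reads: its transcript Slc25a45-206 held 28.0 ± 24.1% of the gene's TPM in ctrl and 68.7 ± 12.4% in cold, with 116 reads per library on average.

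Slc25a39 has 15 annotated transcripts, of which 4 held at least 2% of its TPM on average. Transcript Slc25a39-201, of 12 exons and 1685 nt, is the full-length form. The other 3, Slc25a39-204, Slc25a39-214 and Slc25a39-215, begin elsewhere, share its coding start and have annotated ends that stop inside the coding region, so their 3′ parts are not known from the annotation. Relative to the 5′ end of Slc25a39-201, Slc25a39-204 begins 402 nt upstream, Slc25a39-214 begins 161 nt downstream and Slc25a39-215 begins 728 nt downstream. The first exon of Slc25a39-215 (chr11:102406555-102406816, 262 nt) covers the second exon of Slc25a39-201 and 162 bases of the intron before it.

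**Figure D4:**
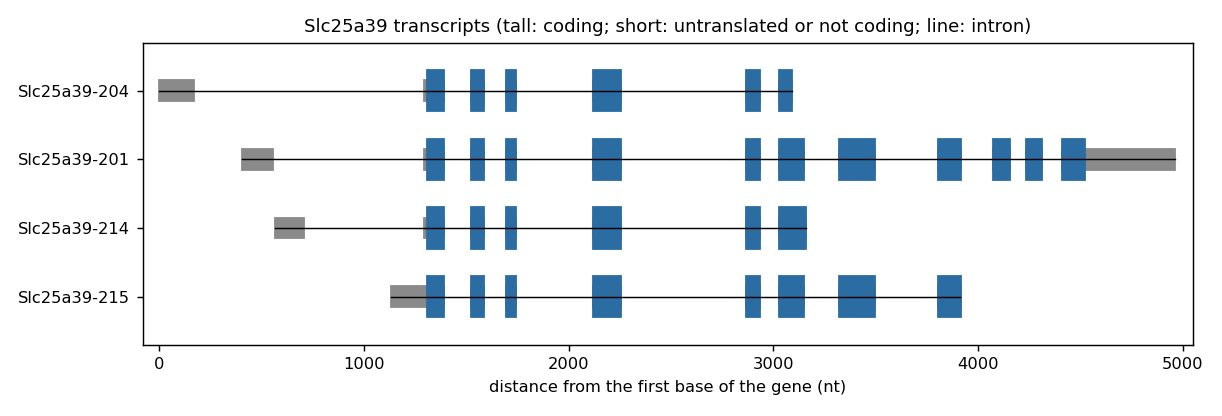
The 4 Slc25a39 transcripts drawn to scale by distance from the first base of the gene in nt, with coding parts as tall boxes, other exon parts as short boxes and introns as lines. They differ in the first exon and in where they end, and the tall boxes begin at the same place in all 4.

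Slc25a39-215 held 2.11 to 3.64% of the gene's TPM in ctrl and 6.41 to 10.4% in cold, so the groups did not overlap. Its mean share went from 2.69 ± 0.61 to 8.74 ± 1.51%, a difference of 6.06 percentage points (exact two-sided permutation p = 0.0022, the smallest that 6 against 6 animals allow, and 0.0043 adjusted over the 4 transcripts). It was also the 1 of the 4 that diffSpliceDGE called by transcript (adjusted p = 0.00846, edgeR; 0.0664% of 24107 transcripts were called), and its own level rose by 2.15 ± 0.17 on the log2 scale. Slc25a39-204 went from 3.51 ± 0.66 to 5.53 ± 1.16% (exact permutation, adjusted p = 0.0087), with overlap through cold 4 at 3.80%. The share of Slc25a39-214 fell from 6.81 ± 1.29 to 4.49 ± 1.05% (exact permutation, adjusted p = 0.0043) without overlap. Its own level was not called (-0.17 ± 0.19, adjusted p = 0.718, edgeR). The share of the main transcript Slc25a39-201 fell from 80.8 ± 2.55 to 76.2 ± 3.38% (exact permutation, adjusted p = 0.0303). Cold 4, at 82.8%, lay inside the ctrl range. The call on this share was lost without ctrl 2, ctrl 9, cold 12, cold 15 or cold 16, with adjusted p from 0.0563 to 0.0649 by the exact permutation test. The own level of Slc25a39-201 was called higher in cold (0.39 ± 0.10, adjusted p = 0.0247, edgeR), so only its part of the gene's RNA was smaller. Estimated reads on Slc25a39-215 were 86.1 to 236 per library in ctrl and 434 to 751 in cold. With shares taken from estimated reads rather than TPM the differences were smaller and kept their direction and call, at 3.61 percentage points for Slc25a39-215, 0.77 for Slc25a39-204, -0.84 for Slc25a39-214 and -3.05 for Slc25a39-201 (exact permutation, adjusted p from 0.0043 to 0.0108).

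**Figure D5:**
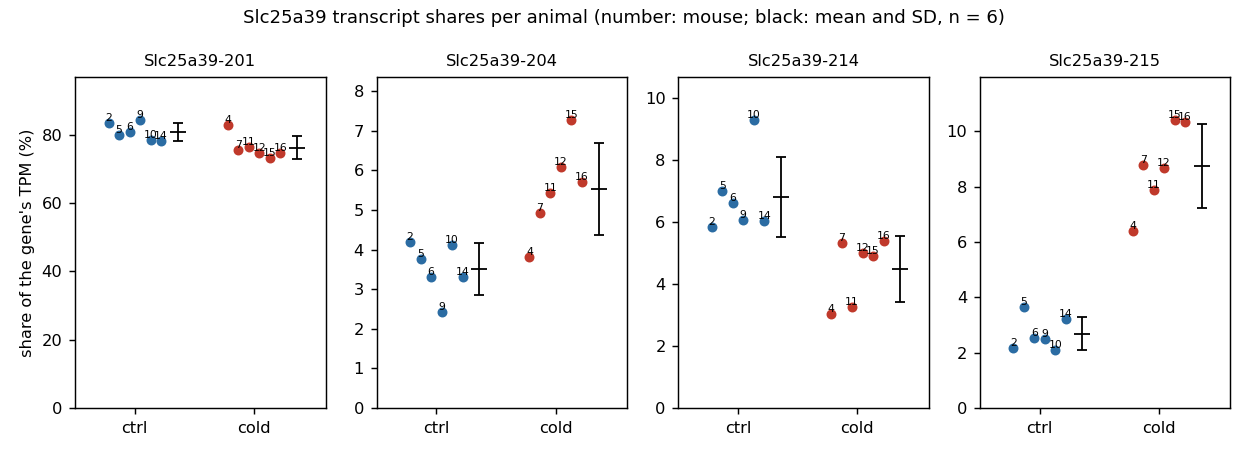
Share of the Slc25a39 TPM held by each of 4 transcripts, in percent, in every animal, with the mouse number at each point and the mean and SD in black. Slc25a39-215 is higher in all 6 cold animals, between 6.41 and 10.4%, than in any ctrl animal, while Slc25a39-201 overlaps between the groups.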

How the data were processed

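Interscapular brown adipose tissue RNA of 6 ctrl and 6 cold mice was sequenced paired-end (50 nt) after directional library preparation, per the labels' protocols. Salmon, cutadapt and bcl2fastq, and the genome GRCm38, come from the submitters' processing notes; their versions and Salmon's annotation are not given in the sources used here. The deposited files hold, per transcript and animal, estimated counts (not normalized) and TPM, per the file headers. The p-values measure the spread between animals.

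GENCODE M21, built on GRCm38, gave each transcript's gene by its unversioned identifier, and 140137 of 140658 matched. Estimated counts were summed per gene and rounded. The gene test was edgeR's quasi-likelihood test (robust, two-sided) with TMM factors, after filterByExpr at a minimum count of 10. Its p-values were adjusted by Benjamini-Hochberg over all genes, with a threshold of 0.05. CPM are TMM-scaled counts. CPM per kb divides by the mean annotated transcript length weighted by expression. The share of TPM in transcripts with an effective length under 50 nt was 55.2% in ctrl 2 and 2.36% to 8.41% elsewhere, so TPM served only for shares within a gene. Usage was tested with diffSpliceDGE on transcript counts. On simulated data with a spread that differs between transcripts, this test made more false calls than its threshold implies, so exact permutation tests of the Slc25a39 shares stand beside it. Gene and permutation tests were also tried on simulated data. Replicate libraries were compared, and even the closest pair differed far beyond sampling noise (chi-square of 14.2 per degree of freedom).

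The members and lists were chosen with earlier results of these data known. Every member enters the counts, but some single genes are not reported here; values by animal are given for Slc25a1, Slc25a17, Slc25a20, Slc25a39 and called members with a log2 change of at least 0.5, and the other called partner genes are named. Alternatives were other scalings, tests and filters, a length offset, a muscle covariate, mitochondrial DNA genes removed, other usage tests and denominators, and animals left out. Leaving out cold 4 with cold 7 from the gene results, leaving out ctrl 2 with cold 15 from the usage and share results, and a denominator of 4 transcripts were chosen after seeing the data. Protein sequences were not used here. Software was edgeR 4.0.16, DESeq2 1.42.0 and limma 3.58.1 under R 4.3.3, and SciPy 1.17.1 under Python 3.11.15.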

Additional observations from a re-analysis of the deposited data

Results flagged for a closer look

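In 12 of 82 groups of 6 animals tested over the members and the Slc25a39 shares, 1 animal stood apart from the other 5 by Dixon's criterion (critical value 0.625), where chance gives about 5%. Cold 4 accounted for 5 of them. It was the highest of the cold animals for Slc25a39 (670 CPM, others 494 to 551), Slc25a11 (213, others 158 to 171), Slc25a26 (30.96, others 23.7 to 26.0) and the share of Slc25a39-201 (82.8%, others 73.1 to 76.3%), and the lowest for Slc25a42 (473, others 504 to 521). Ctrl 9 was the highest ctrl animal for Slc25a1 (1270 CPM, others 711 to 862) and the lowest for Slc25a17 (108, others 127 to 139) and Slc25a42 (230, others 331 to 361). Cold 15 was the highest cold animal for Slc25a12 (25.4 CPM, others 4.90 to 11.5) and the lowest for Slc25a48 (31.4, others 48.9 to 54.2). Ctrl 6 was the highest for Slc25a14 (1.82 CPM, others 1.05 to 1.31), and ctrl 10 for the share of Slc25a39-214 (9.29%, others 5.84 to 7.00%). The cause was not tested.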

How the results depend on the processing

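All 15 called members kept their call and direction under all 23 alternatives, 345 values in all. The members called higher numbered 11 to 13 and those lower 4 to 5. Partner genes called higher were 35 with library totals against 21, and 19 to 25 with 1 animal left out. Members called for usage were 2 with limma's diffSplice (adding Slc25a45) and 2 at a minimum count of 50 (adding Slc25a35), against 1, and 1 to 2 with 1 animal left out, the second being Slc25a11 without cold 4. Slc25a39 was called in each of these. Over all genes usage calls were 89, against 14 with Simes, 197 with limma, 165 at a minimum count of 50, 211 without cold 4, and 52 without ctrl 2 and cold 15. The difference in the Slc25a39-201 share was -5.89 to -3.89 percentage points with 1 animal left out, and -3.44 without ctrl 2 and cold 15 (exact permutation, adjusted p = 0.111). The causes were not tested. No paired analysis was possible because the groups share no mouse number. Low counts left 8 members without a test.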

Other observations

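Within the 6 ctrl animals the levels of several members were set beside that of Ucp1 after the values had been seen, in 74 relations (37 members in each group). Ucp1 ran from 6549 CPM in ctrl 9 to 11131 in ctrl 6. For Slc25a34 Pearson's r was 0.907 (permutation p = 0.00972, adjusted 0.343) and Spearman's rho 1.00 (permutation p = 0.00278, adjusted 0.103), and r without the 2 animals farthest from the median was 0.73. For Slc25a33 r was 0.936 (permutation p = 0.00694, adjusted 0.343) and rho 1.00 (permutation p = 0.00278, adjusted 0.103), with r = 0.866 without those 2. Within cold the r values were 0.244 for Slc25a34 and 0.423 for Slc25a33. None of the 74 relations passed the adjustment. For rho, 0.00278 is the smallest two-sided permutation p that 6 animals allow, so this outcome says little about the relations.

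Further transcript shares differed in mean without a usage call. Slc25a35-201 held 17.6 ± 3.09% of its gene's TPM in ctrl and 25.3 ± 2.10% in cold, and the retained-intron transcript Slc25a28-202 held 10.6 ± 0.93% and 6.96 ± 1.24% (SD, n = 6 each). Both were chosen after their values were seen.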
